A study of Mus musculus with 6 samples.

Results

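The 10 genes Wnt2b, Wnt4, Wnt5a, Wnt5b, Rspo1, Rspo3, Dkk2, Dkk3, Sfrp1 and Dvl2 were read by symbol from a table of 27202 genes measured by RNA sequencing of whole colonic tissue. Of these, 9 encode secreted Wnt ligands, R-spondins or Wnt inhibitors that are made largely by the stroma beneath the epithelium, and Dvl2 encodes an intracellular Wnt transducer. The 3 libraries labelled cKO1 to cKO3 came from Nedd4l fl/fl Villin Cre mice. Their Cre is driven by the Villin promoter, so the ubiquitin ligase gene Nedd4l is lost from intestinal epithelial cells (IECs) and the stroma keeps it. The 3 libraries labelled WT1 to WT3 came from Nedd4l fl/fl littermates without Cre, which carry the same floxed alleles. All mice were 8 to 10 weeks old and drank 2% dextran sodium sulfate (DSS), which injures the colonic epithelium, until the tissue was taken on day 7, so no library shows an uninjured colon. The comparison of cKO with WT describes the Wnt niche of the injured colon when Nedd4l is missing from IECs.

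Wnt ligands bind Frizzled receptors with the co-receptors Lrp5 and Lrp6, and through Dishevelled proteins they spare β-catenin from degradation, which keeps stem cells at the crypt base dividing. R-spondins bind Lgr receptors and keep Znrf3 and Rnf43 from removing Frizzled receptors, whereas Dickkopf and secreted Frizzled-related proteins act outside the cell against Wnt ligands or their co-receptors. Wnt5a and its close relative Wnt5b act mainly without β-catenin, among others through the receptor Ror2, and Wnt5a is known from the mesenchyme of healing colonic wounds.

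NEDD4-type ubiquitin ligases bind short motifs of a pair of prolines, any residue and a tyrosine, and Dvl2 is known as a NEDD4L substrate. The coding sequence around this motif is therefore shown for the 3 Dishevelled genes, in the mouse build GRCm38 with GENCODE release M21 transcripts, 5′ to 3′ on the plus strand, with the 4 codons of the motif in capitals. They lie in coding exon 14 of Dvl2 (chr11:70008902-70008961), in exon 14 of Dvl1 (chr4:155856730-155856789) and in exon 15 of Dvl3 (chr16:20531316-20531375).
Dvl2: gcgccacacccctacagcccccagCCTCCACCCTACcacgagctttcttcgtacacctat
Dvl1: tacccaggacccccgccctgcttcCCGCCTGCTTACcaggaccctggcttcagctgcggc
Dvl3: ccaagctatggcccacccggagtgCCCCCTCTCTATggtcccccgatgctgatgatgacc
Each of the 3 genes held 1 such run of codons. Of 21526 protein-coding genes with a complete annotated coding sequence, 1301 (6.04%) held at least 1. RNA sequencing measures Dvl2 transcript and not the protein that carries the motif.

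Promoters were given by RefSeq (GRCm38.p6) for 6 of the 10 genes, and those of Wnt4 and Dvl2 are shown as a ligand with higher and an intracellular gene with similar values in the cKO libraries. They span 250 bases before to 50 bases after the start, at chr4:137277385-137277684 for Wnt4 and chr11:70000342-70000641 for Dvl2, both on the plus strand. Capitals mark matches, on either strand, to the TCF/LEF motif (CTTTGAT or CTTTGAA), the E-box CACGTG, the AP-1 motif TGANTCA or the TATA motif TATAAA.
Wnt4: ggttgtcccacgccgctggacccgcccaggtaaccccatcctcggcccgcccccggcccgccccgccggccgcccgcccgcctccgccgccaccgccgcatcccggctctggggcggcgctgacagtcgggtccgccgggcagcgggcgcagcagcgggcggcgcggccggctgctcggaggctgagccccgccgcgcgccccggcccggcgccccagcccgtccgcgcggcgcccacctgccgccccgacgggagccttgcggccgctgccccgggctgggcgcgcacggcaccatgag
Dvl2: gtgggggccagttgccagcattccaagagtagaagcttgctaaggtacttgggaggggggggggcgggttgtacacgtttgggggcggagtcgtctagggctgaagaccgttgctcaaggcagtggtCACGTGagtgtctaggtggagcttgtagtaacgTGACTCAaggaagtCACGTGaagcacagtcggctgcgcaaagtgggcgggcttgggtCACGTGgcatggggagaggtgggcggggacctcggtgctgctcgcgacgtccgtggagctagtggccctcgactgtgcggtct
The Dvl2 window held 3 E-boxes and 1 AP-1 match, and the Wnt4 window, with a GC content of 84.3%, held no match to the 4 motifs. Of 32851 promoter windows, 7.15% held the E-box, 7.81% the AP-1 motif, 8.65% the TCF/LEF motif and 13.6% the TATA motif, and the median GC content was 52.7%. Among the other promoters given, the TCF/LEF motif occurred once, at 1 of 3 Wnt5b starts, the AP-1 motif once, at another Wnt5b start, and the TATA motif once, at Dkk2, while those of Wnt2b and Rspo1 held no match.

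The values are normalized counts, that is, each gene's reads after division by a size factor of the library. In every library each value was a whole multiple of 1 step, of 0.90 to 1.11 normalized counts, and the libraries summed to between 14914367 and 17547270 steps. Nedd4l, the deleted gene, had 476 normalized counts in cKO1, 942 in cKO2 and 566 in cKO3 against 1241 in WT1, 1271 in WT2 and 1266 in WT3. Its log2 fold change was −0.99 (SE 0.24, adjusted p = 0.225), and the exact two-sided permutation p was 0.1, the smallest that 3 against 3 libraries allow. cKO2 therefore kept the most Nedd4l of the cKO libraries. Over all tested genes its mean r was 0.977 with the WT libraries and 0.966 with the other cKO libraries. The lower mean came from cKO1 (r = 0.954). With cKO3 the r of cKO2 was 0.978, within its range of 0.973 to 0.980 with the WT libraries. cKO1 stood farthest from the rest, with r from 0.947 to 0.972. The epithelial identity of the tissue was plain, with 9 of 9 epithelial markers tested and a summed level of 195311 to 220343 normalized counts in cKO and 210312 to 235170 in WT. The labels number the libraries without naming animals or litters, so p-values measure only the spread between these libraries.

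Differences were tested with limma on log2(normalized count + 1), two-sided, for the 16246 genes whose 6 libraries averaged 10 or more, with Benjamini-Hochberg adjustment, and fold changes on this scale understate those of genes with low values. Of the 10 Wnt niche genes, 8 reached that mean, and each of the 8 also reached it in the WT libraries alone. Rspo1 and Dkk2 did not. Of the 8, 0 passed an adjusted p of 0.05, as did 0 of all genes tested (0%), and the smallest adjusted p over all genes was 0.111. At an unadjusted p under 0.05, 2 of the 8 were higher in cKO (Wnt4 and Wnt5a) and 0 were lower, beside 6.91% of all genes tested higher and 7.08% lower. In 3 of the 8 (Wnt4, Wnt5a and Dkk3) all cKO libraries lay above all WT libraries and in 0 all lay below, beside 10.5% and 10.9% of all genes tested. The fold change was positive for 6 of the 8 and negative for Wnt5b and Dvl2, whereas with values taken relative to fibroblast markers it was positive for 3, and relative to smooth muscle markers, whose own difference rests on WT2, for all 8. The median log2 fold change of the 8 was 0.50, and that of all genes tested was 0.0013.

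**Figure D1:**
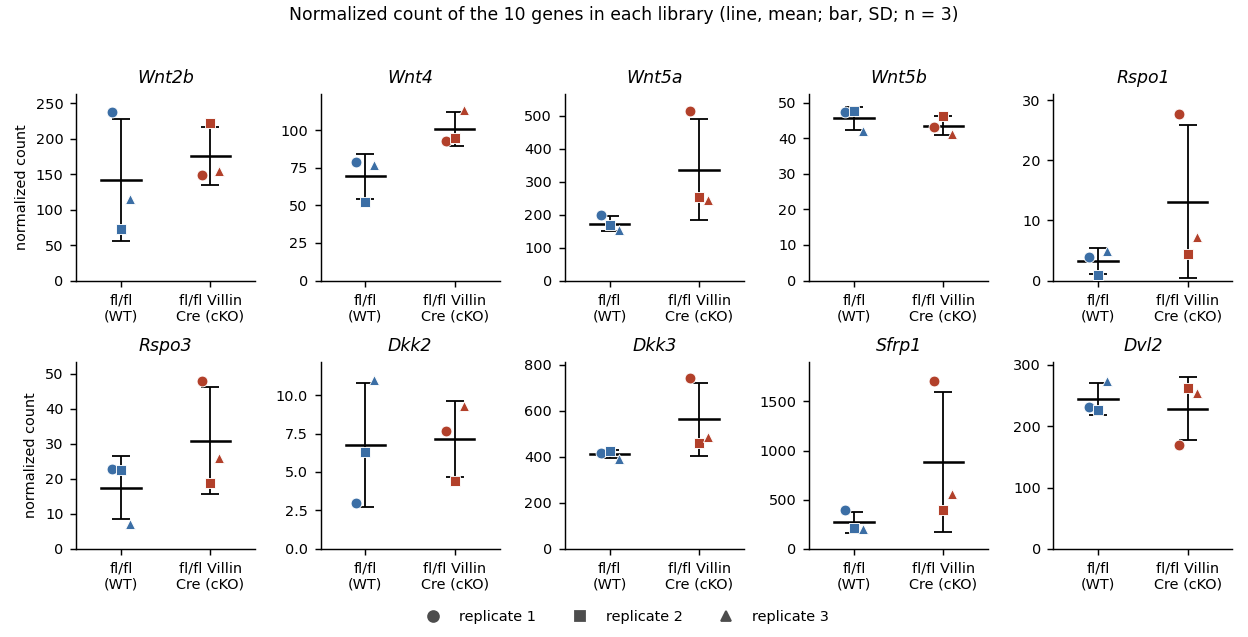
Normalized count (y axis, from 0, with its own range in each panel) of the 10 genes in the 3 Nedd4l fl/fl (WT) and 3 Nedd4l fl/fl Villin Cre (cKO) libraries; each point is 1 library, its shape the replicate number, the line the mean and the bar the SD. Wnt4, Wnt5a and Dkk3 have all 3 cKO points above the WT points, and the circle of cKO1 is the highest point for Wnt5a, Rspo1, Rspo3, Dkk3 and Sfrp1 and the lowest for Dvl2.

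Among the 4 ligands, Wnt5a had the largest fold change over all 6 libraries. Wnt5a (chr14:28504750-28527448, plus strand) measured 514 normalized counts in cKO1, 252 in cKO2 and 243 in cKO3, against 199 in WT1, 167 in WT2 and 153 in WT3. The lowest cKO library thus lay above the highest WT library, and cKO1 stood apart from the other 2 cKO libraries. Means were 336 ± 154 (SD, n = 3) in cKO and 173 ± 23.4 (SD, n = 3) in WT. The log2 fold change was 0.87 (SE 0.29, 95% interval 0.19 to 1.56), and it did not pass the adjustment over all genes (adjusted p = 0.301). Without cKO1 it was 0.52.

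Wnt4, a ligand of the stroma that can act with or without β-catenin, had the lowest value in WT2. The gene (chr4:137277489-137299726, plus strand) gave 93.0 normalized counts in cKO1, 95.1 in cKO2 and 114 in cKO3, and 79.0 in WT1, 52.2 in WT2 and 76.9 in WT3. Every cKO library was above every WT library, here with cKO3 and not cKO1 the highest. The group means of 100.5 ± 11.3 and 69.4 ± 14.9 (SD, n = 3 each) differed by a log2 fold change of 0.55 (SE 0.23, 95% interval 0.016 to 1.08, adjusted p = 0.349). Without WT2 it was 0.36.

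Wnt2b, a β-catenin-activating ligand of the subepithelial stroma, had the largest SD in WT of the 4 ligands. It (chr3:104945272-104961921, minus strand) had 149 normalized counts in cKO1, 222 in cKO2 and 155 in cKO3 beside 238 in WT1, 72.9 in WT2 and 115 in WT3. WT1 was the highest library of all and WT2 the lowest, so the groups overlapped. The log2 fold change of 0.45 (SE 0.42, 95% interval −0.56 to 1.46, adjusted p = 0.645) was about its own standard error. It was 0.91 without WT1, 0.058 without WT2 and 0.27 without cKO2.

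Wnt5b (chr6:119432531-119544347, minus strand), the closest relative of Wnt5a, was nearly level. It measured 43.1, 46.4 and 41.3 normalized counts in cKO1 to cKO3 and 47.4, 47.7 and 41.9 in WT1 to WT3. The spread within each group, 2.62 and 3.24 (SD, n = 3), covered the whole difference between the means of 43.6 and 45.7. Its log2 fold change of −0.065 (SE 0.22) had a 95% interval from −0.57 to 0.44 (adjusted p = 0.910). The opposite-strand gene Fbxl14, with a mean of 905 normalized counts, overlaps Wnt5b, and whether the counting used strand is not stated.

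The R-spondins, which raise the response of Lgr-bearing cells to Wnt ligands, were low and led by cKO1. Rspo3 (chr10:29452416-29535867, minus strand) had 47.9 normalized counts in cKO1, 18.8 in cKO2 and 25.8 in cKO3, and 22.7 in WT1, 22.5 in WT2 and 6.99 in WT3. The cKO2 library lay below WT1 and WT2, so the groups overlapped. The log2 fold change was 0.85 (SE 0.53, 95% interval −0.39 to 2.08, adjusted p = 0.488). It was 0.33 without WT3 and 0.49 without cKO1.

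Rspo1 (chr4:124986430-125009099, plus strand) measured 27.8 normalized counts in cKO1, 4.42 in cKO2 and 7.22 in cKO3, and 3.95 in WT1, 0.90 in WT2 and 4.99 in WT3. Only cKO1 was clearly raised, while cKO2 lay between the WT libraries. The means were 13.2 ± 12.8 and 3.28 ± 2.13 (SD, n = 3 each), and with a mean of 8.21 over the 6 libraries the gene was under the limit for testing. When every gene was tested whatever its level, its log2 fold change was 1.503 (SE 0.69, adjusted p = 0.480). It was 0.80 without cKO1 and 0.997 without WT2.

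Of the secreted inhibitors, Sfrp1 had the largest fold change of the 8 genes tested. Sfrp1 (chr8:23411502-23449632, plus strand), which encodes a soluble Frizzled-like domain that binds Wnt ligands, had 1705 normalized counts in cKO1, 391 in cKO2 and 554 in cKO3, and 394 in WT1, 215 in WT2 and 204 in WT3. The groups overlapped by a narrow margin, cKO2 against WT1, and cKO1 stood far above every other library. Means were 884 ± 716 in cKO and 271 ± 107 in WT (SD, n = 3 each). The log2 fold change was 1.47 (SE 0.60, 95% interval −0.0045 to 2.95, adjusted p = 0.358), and without cKO1 it was 0.85.

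Dkk3 (chr7:112116017-112159057, minus strand), a Dickkopf family member whose action on Wnt signaling is less settled than that of its relatives, had 743 normalized counts in cKO1, 459 in cKO2 and 484 in cKO3, and 418 in WT1, 426 in WT2 and 391 in WT3. The WT libraries lay close together, and each cKO library was above them, cKO2 by little. With means of 562 ± 157 and 412 ± 17.9 (SD, n = 3 each) the log2 fold change was 0.41 (SE 0.18, 95% interval −0.0047 to 0.83, adjusted p = 0.360). Without cKO1 it was 0.20.

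Dkk2 (chr3:132085292-132180304, plus strand), which binds the co-receptors Lrp5 and Lrp6, was near the limit of measurement. It had 7.67, 4.42 and 9.28 normalized counts in cKO1 to cKO3 and 2.96, 6.30 and 10.98 in WT1 to WT3. Both the lowest and the highest library were WT, and the means of 7.13 ± 2.48 and 6.75 ± 4.03 (SD, n = 3 each) were within the spread of either group. Tested with all genes whatever their level, its log2 fold change was 0.16 (SE 0.56, adjusted p = 0.943).

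Dvl2 (chr11:70000595-70012301, plus strand) carries the Wnt signal from Frizzled receptors to the β-catenin destruction complex, and it is known to be expressed widely, IECs included. It measured 170 normalized counts in cKO1, 263 in cKO2 and 254 in cKO3, and 232 in WT1, 226 in WT2 and 274 in WT3. cKO1 was the lowest library and the other 2 cKO libraries lay within the WT range. The log2 fold change was −0.11 (SE 0.19, 95% interval −0.56 to 0.34, adjusted p = 0.815), and without cKO1 it was 0.089. Its paralogs also had overlapping groups, with 1073 to 1200 normalized counts in cKO and 1150 to 1302 in WT for Dvl1 (log2 fold change −0.12, adjusted p = 0.553) and 1073 to 1201 and 951 to 1091 for Dvl3 (0.14, adjusted p = 0.483). Relative to smooth muscle markers the fold changes of Dvl2 and Dvl1 turned positive, and relative to fibroblast markers that of Dvl3 turned negative. The 3′ end of Dvl2 overlaps Acadvl on the opposite strand, which had a mean of 1079 normalized counts. If strand was not used, the count of Dvl2 could be affected. The direction would depend on how reads in the overlap were assigned, which is not stated.

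**Figure D2:**
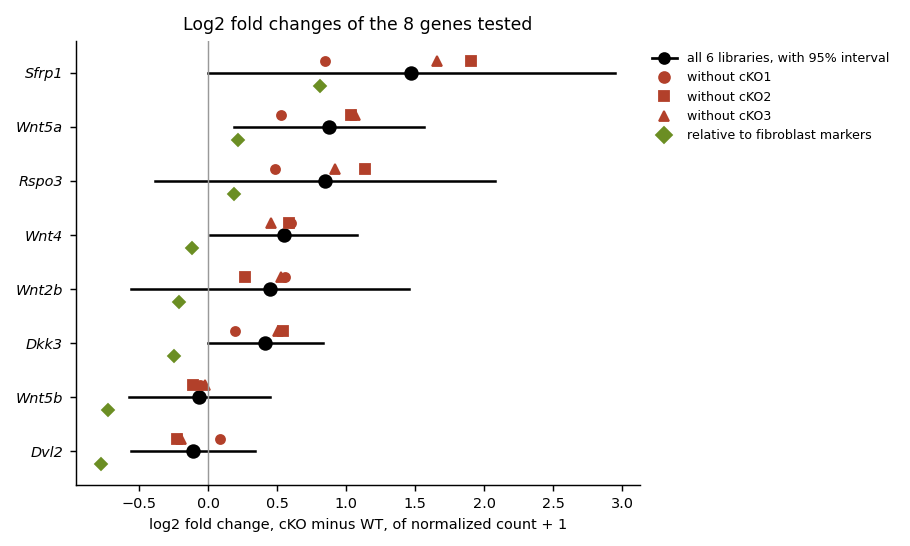
Log2 fold change (x axis, cKO minus WT, of the normalized count plus 1) of the 8 genes tested, with the 95% interval from limma over all 6 libraries (black), without each cKO library in turn (red) and with values taken relative to fibroblast markers in the same library (green). Only the intervals of Wnt5a and Wnt4 lie above 0, leaving out cKO1 moves Sfrp1 to 0.85 and Wnt5a to 0.52, and relative to fibroblast markers Wnt4, Wnt2b and Dkk3 fall below 0.

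Per kilobase of gene model, the WT order of mean levels was Dkk3 (122 normalized counts per kb), Sfrp1 (62.0), Dvl2 (38.7), Wnt2b (33.8), Wnt5a (22.1), Wnt5b (17.2), Wnt4 (16.5), Rspo3 (5.63), Dkk2 (1.82) and Rspo1 (1.69). Neighbours whose WT ranges overlapped were Dvl2 and Wnt2b, Wnt2b and Wnt5a, Wnt5b and Wnt4, Rspo3 and Dkk2, and Dkk2 and Rspo1. In cKO, Sfrp1 (202 ± 164 normalized counts per kb, SD, n = 3) had a higher mean than Dkk3 (167 ± 46.8), with overlapping ranges. Wnt5a (43.0 ± 19.6) and Wnt2b (41.7 ± 9.73) overlapped there as well, and Wnt4 (23.96 ± 2.69) no longer overlapped Wnt5b (16.4 ± 0.987). The inhibitors Dkk3 and Sfrp1 thus headed the order in both groups, and the R-spondins stood near its end with Dkk2.

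In bulk tissue, more cells of a type and more RNA per cell cannot be told apart. Markers of fibroblasts, pericytes and endothelium had mostly positive fold changes, as did 6 of the 8 niche genes tested. Those of smooth muscle and interstitial cells of Cajal, given below, had negative ones. All 10 of 10 fibroblast markers had a positive fold change (median log2 fold change 0.55). At an unadjusted p under 0.05, 4 of them (40%) were higher, beside 6.91% of all genes tested. These 4 were the collagen genes Col1a1, Col1a2, Col3a1 and Col6a1. The markers other than collagens, Pdgfra (0.55), Pdgfrb (0.41), Dcn (0.78), Dpt (0.47) and Lum (0.13), had overlapping groups. The summed level of the 10 was 27178 to 50256 normalized counts in cKO and 13906 to 23476 in WT, with cKO1 the highest. Col3a1, its largest part, had 9833 to 19758 in cKO and 4557 to 8282 in WT. Col1a1, the chain of type I collagen, had 7907, 3462 and 4009 normalized counts in cKO1 to cKO3 and 2452, 1862 and 2254 in WT1 to WT3. Grem1, a BMP antagonist of the stroma near the crypt base, had 2174, 430 and 830 in cKO1 to cKO3 and 401, 334 and 285 in WT1 to WT3, so that cKO1 led here as it did for Sfrp1. The fold change was also positive for 4 of 4 pericyte markers (median 0.65, summed level 1107 to 3246 in cKO and 951 to 1245 in WT), and for 4 of 5 endothelial markers (median 0.50, 2145 to 3611 and 1490 to 2184). Markers of trophocyte-like fibroblasts, Grem1 among them, had a median of 0.73 (5 of 7 higher, 8338 to 19811 and 5971 to 6462). That median was the value of C3. Much of the sum came from C3 (4010 to 5919 in cKO and 2529 to 2991 in WT) and Igfbp5 (950 to 9252 and 490 to 842). Cd34 and Pi16 had positive fold changes with overlapping groups. In that list Cd81 (−0.074) and Ackr4 (−0.23) had negative fold changes. Markers of telocyte-like fibroblasts had a median of 0.45 (7 of 8 higher, 2868 to 4072 and 1852 to 3401).

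Mesothelial markers were low and also higher in cKO, 3 of 3 tested (median 0.42), with a summed level of 62.9 to 167 normalized counts in cKO and 35.0 to 58.3 in WT over the 4 of 6 markers in the table, cKO1 being the highest. The mean log2 difference of each of these lists, over its tested markers, stayed positive without any 1 library, and without cKO1 it went from 0.66 to 0.42 for fibroblast, from 0.62 to 0.19 for pericyte, from 0.43 to 0.18 for endothelial, from 0.80 to 0.45 for trophocyte-like and from 0.76 to 0.46 for mesothelial markers. That of telocyte-like markers went from 0.40 to 0.18 without WT2. Of the muscle layer, all 8 of 8 smooth muscle markers had a negative fold change (median −0.44). At an unadjusted p under 0.05, 0 of them were lower, beside 7.08% of all genes tested. Their summed levels were 6719 to 12461 in cKO and 6284 to 23652 in WT, WT2 being the highest. Their mean log2 difference of −0.42 rested on WT2, since without that library it was 0.060. The 3 markers of interstitial cells of Cajal had negative fold changes as well (median −0.51, summed level 2223 to 4680 and 4641 to 5612), with cKO1 the lowest, and their mean log2 difference went from −0.54 to −0.28 without cKO1. Epithelial, lymphatic, glial and neuronal markers had medians of −0.056, −0.025, −0.33 and −0.19, leukocyte markers one of 0.35, and mitochondrially encoded genes one of −0.084. In none of these lists was a measured marker at 0 in all libraries. The part of tissue composition in the fold changes of the Wnt niche genes was not tested.

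When each library's log2 values were taken relative to the mean of its fibroblast markers, the median of all genes moved to −0.66, and the fold changes were 0.81 for Sfrp1, 0.21 for Wnt5a, 0.19 for Rspo3, −0.11 for Wnt4, −0.21 for Wnt2b and −0.25 for Dkk3. Sfrp1 was then the 1 member at an unadjusted p under 0.05, beside 0.849% of all genes tested in that direction. On that scale the log2 difference of Sfrp1 from the WT mean was 1.58 in cKO1, 0.13 in cKO2 and 0.72 in cKO3, and 0.22 in WT1, 0.13 in WT2 and −0.35 in WT3. For Wnt5a the same quantity was 0.44, 0.084 and 0.12 in cKO1 to cKO3 and −0.18, 0.36 and −0.18 in WT1 to WT3, so its groups overlapped once fibroblast markers were set level. Without cKO1, with the unscaled values, 3 of the 8 genes were higher at an unadjusted p under 0.05 (Sfrp1, Wnt4 and Wnt5a), beside 5.31% of all genes tested. Without cKO2, which kept the most Nedd4l, there were 3 (Dkk3, Sfrp1 and Wnt5a) beside 8.93%, and the genes with all cKO above all WT libraries were 5 beside 18.5%. Without cKO3 there were 3 (Dkk3, Sfrp1 and Wnt5a) beside 4.92%, and without WT1 there were 4 (Sfrp1, Wnt2b, Wnt4 and Wnt5a) beside 5.96%, with 5 genes apart beside 16.7%. Without WT2 there were 0 beside 4.88% and without WT3 there were 0 beside 5.05%.

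**Figure D3:**
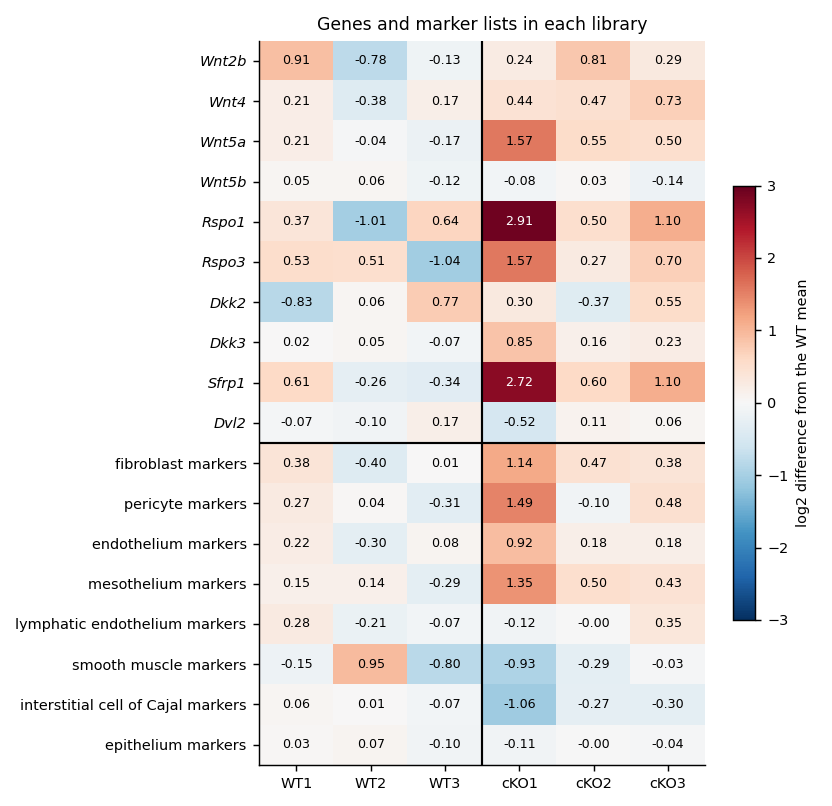
Difference from the WT mean on the log2 scale (colour and printed value) of the 10 genes, in italics, and of the mean of 8 marker lists (rows) in each of the 6 libraries (columns). The cKO1 column is high for Sfrp1 (2.72), Rspo1 (2.91), Wnt5a (1.57) and Rspo3 (1.57) as well as for fibroblast (1.14) and pericyte (1.49) markers, and low for smooth muscle (−0.93) and interstitial cell of Cajal (−1.06) markers.

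The rest of the Wnt pathway was read from a hand-written list of 105 genes, of which 97 were in the table and 83 were tested. There 8 were higher and 5 lower at an unadjusted p under 0.05 (9.64% and 6.02%, beside 6.91% and 7.08% of all genes tested), 0 passed the adjusted threshold, and the median log2 fold change was 0.0040. The fold change was positive for 46 and negative for 37, and this split was 39 to 44 under quantile normalization, 4 to 79 relative to fibroblast markers and 74 to 9 relative to smooth muscle markers. The median of the 8 niche genes, which are not in this list, was 0.50.

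Among ligands outside the set, Wnt6, a β-catenin-activating ligand, had 29.7, 23.2 and 20.6 normalized counts in cKO1 to cKO3 and 11.9, 11.7 and 9.99 in WT1 to WT3. All its cKO libraries lay above all WT libraries, as in 10.5% of all genes tested, and its log2 fold change was 1.06 (SE 0.32, adjusted p = 0.276). Wnt2, the only other ligand that could be tested, had a fold change of 0.0040, which ran from −0.58 without WT2 to 0.56 without WT1. Of the genes for Wnt release, Wls, the carrier that takes Wnt ligands to the cell surface, had 1614 to 2020 normalized counts in cKO and 1788 to 2295 in WT (−0.14, adjusted p = 0.626).

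Of 19 receptor genes, 0 were higher and 2 (10.5%) lower at an unadjusted p under 0.05, beside 6.91% and 7.08% of all genes tested. All cKO libraries lay below all WT libraries in 5 of the 19 and above them in 0, beside 10.9% and 10.5% of all genes tested. The median of the receptor genes was −0.15. Ror2, a receptor for Wnt5a, had 120, 128 and 91.8 normalized counts in cKO1 to cKO3 and 188, 179 and 136 in WT1 to WT3. It was 1 of these 5, in the opposite order to Wnt5a (log2 fold change −0.56, SE 0.21, adjusted p = 0.314). A relation between the 2 genes was not tested. Fzd7, a Frizzled receptor of intestinal stem cells, had 179, 313 and 246 in cKO1 to cKO3 against 370, 407 and 355 in WT1 to WT3 (−0.65, SE 0.20, adjusted p = 0.278). Lgr5, the R-spondin receptor that marks crypt stem cells, had 39.3, 82.9 and 129 in cKO1 to cKO3 and 111, 137 and 101 in WT1 to WT3, with overlapping groups (−0.61, SE 0.41, adjusted p = 0.516, and −0.15 without cKO1).

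Of 11 other inhibitors outside the cell, 9 had a positive fold change (2 relative to fibroblast markers), as Sfrp1 and Dkk3 did with unscaled values, and the median was 0.27. Kremen2, a membrane partner of Dickkopf proteins, had 292 to 331 normalized counts in cKO and 190 to 243 in WT (log2 fold change 0.59, adjusted p = 0.211, −0.071 relative to fibroblast markers). Sfrp2, a relative of Sfrp1, had 45.4 to 55.3 and 19.8 to 46.4 (0.85, adjusted p = 0.343), and Apcdd1, which binds Wnt ligands at the cell surface, had 27.6 to 89.2 and 15.3 to 21.7 (1.21, adjusted p = 0.316, and 0.70 without cKO1, the highest library). Trabd2b, a protease that inactivates Wnt ligands, went the other way, with 30.7 to 58.6 in cKO and 75.6 to 94.8 in WT (−0.97, adjusted p = 0.265).

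Inside the cell, 4 of 36 genes were higher and 1 lower at an unadjusted p under 0.05 (11.1% and 2.78%, beside 6.91% and 7.08% of all genes tested). Dact2, which binds Dishevelled proteins, had 314 to 364 normalized counts in cKO and 430 to 466 in WT (log2 fold change −0.44, SE 0.11, adjusted p = 0.214). Prickle1, a planar polarity gene of the pathway that Wnt5a can engage, had 106 to 175 and 74.7 to 98.8 (0.57, adjusted p = 0.347, 0.36 without cKO1, −0.094 relative to fibroblast markers). Tnks2, whose enzyme marks Axin for degradation, and Bcl9l, a β-catenin co-activator, had fold changes of 0.24 and 0.25, which became −0.42 for each relative to fibroblast markers. Of 13 target genes of β-catenin, 10 had a negative fold change, as did 8086 of all 16246 genes tested. That count was 11 under quantile normalization, 7 with array weights, 8 without cKO1 and 8 without WT2. It was 13 relative to fibroblast markers and 2 relative to smooth muscle markers. With all 6 libraries, 1 of the 13 (7.69%, beside 7.08% of all genes tested) was lower at an unadjusted p under 0.05. This was Axin2, a feedback inhibitor used as a readout of β-catenin signaling, with 341, 684 and 584 normalized counts in cKO1 to cKO3 and 830, 761 and 772 in WT1 to WT3 (−0.61, SE 0.25, adjusted p = 0.347). Without cKO1, the lowest library, the fold change of Axin2 was −0.32. The summed level of the target genes was 8342 to 9029 in cKO and 9087 to 9319 in WT, a narrow margin. Ccnd1 (−0.15) and Ephb2 (−0.099), the largest parts of this sum, had overlapping groups. Cd44, also a large part, had a positive fold change (0.32) and overlapped as well. Axin2 was the 1 target gene of the 13 with all cKO below all WT libraries (7.69%, beside 10.9% of all genes tested).

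**Figure D4:**
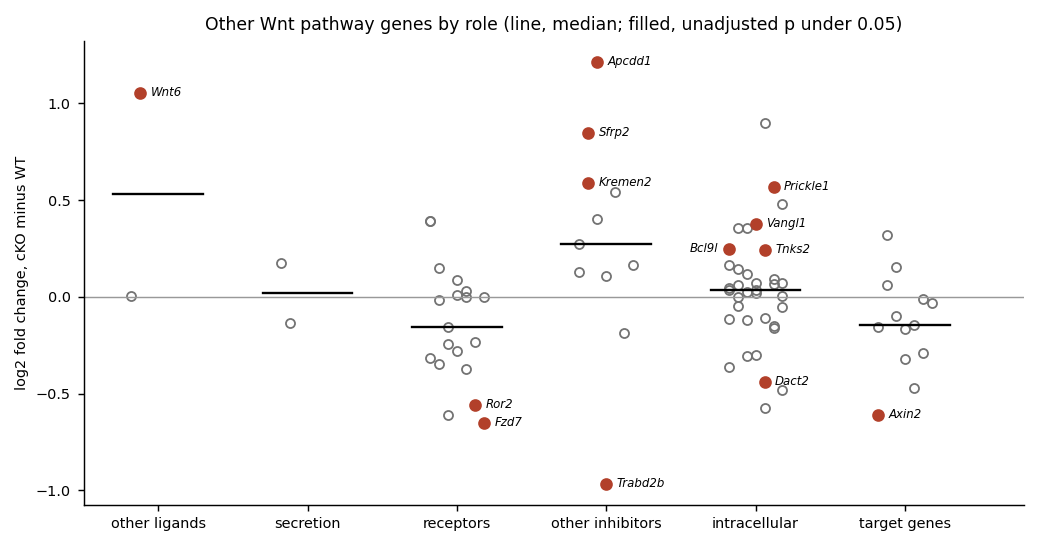
Log2 fold change (y axis, cKO minus WT) of the 83 tested genes of the wider Wnt pathway by role (x axis); open circles have an unadjusted p of 0.05 or more, filled circles, with their symbols, a smaller one, and lines are medians. The inhibitors have a median of 0.27 and the receptors and target genes both have one of −0.15; relative to fibroblast markers all points would lie 0.66 lower and relative to smooth muscle markers 0.42 higher.

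The pattern of the secreted members over the 6 libraries was summarised as the mean z score of the 7 that were tested, which was 0.98 in cKO1, 0.26 in cKO2, 0.14 in cKO3, 0.14 in WT1, −0.61 in WT2 and −0.90 in WT3. WT1 lay level with cKO3, so the summary did not separate the groups. Among 11874 other protein-coding genes with a mean of at least 50, those most like it, by Pearson correlation over the 6 libraries and given as a description, were Plat, the tissue plasminogen activator (r = 0.998), Tenm3, a teneurin (0.993), Ms4a6d, a membrane protein of macrophages (0.991), Pip4k2b, a phosphoinositide kinase (0.985), and Capns1, a calpain subunit (0.984). Plat had 417, 268 and 253 normalized counts in cKO1 to cKO3 and 232, 147 and 119 in WT1 to WT3. All 6 points of each correlation share cKO1 as the highest library.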

How the data were processed

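RNA of the DSS-treated colon, in 3 libraries from mice with and 3 from littermates without Villin Cre, was analysed from 1 table. The authors deposited a signal per gene, read counts divided by 1 size factor per library, with gene length, which was used per kilobase. The submitters' processing notes name HISAT2 2.0.5, featureCounts 1.5.0-p3 and the human build hg18, whereas the coordinates are mouse GRCm38: 97.04% of genes have those of GENCODE M21. The strand setting and the normalization tool are not given in the sources used here, and neither is the number of reads behind a step (whole multiples were read with a tolerance of 0.1). The authors' group means, log2 fold changes and p-values in the table were not used.

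After log2 transformation with a pseudocount of 1, genes averaging 10 or more were fitted by lmFit and eBayes (trend and robust; limma 3.58.1, R 4.3.3; tested on simulated data) with Benjamini-Hochberg adjustment at 0.05 and no covariate. The planned count models were not run. Alternatives changed the pseudocount, the filter, the scaling, the weights and the libraries used. Correlations, sums and figures used Python 3.11.15 and matplotlib 3.10.9. Named were all 10 members, Nedd4l, the 12 genes of the wider Wnt list with the smallest p, Dvl1 and Dvl3, and the 5 genes most like the secreted members. Wnt2, Wls, Lgr5 and the markers Col1a1 and Grem1 were chosen after their values were seen. The members, lists and tests were chosen with earlier results of these data known.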

Additional observations from a re-analysis of the deposited data

How the results depend on the processing

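Across 16 alternatives, the number of Wnt niche genes past an adjusted p of 0.05 stayed at 0. Wnt5a, Sfrp1 and Rspo3 kept a positive fold change in all of those in which they were tested, with ranges of 0.21 to 1.29, 0.81 to 1.91 and 0.19 to 1.26. Relative to the fibroblast markers, which lowers every log2 fold change by the difference in those markers, the sign turned for Wnt2b (−0.21), Wnt4 (−0.11), Dkk3 (−0.25), Kremen2 (−0.071), Tnks2 (−0.42), Bcl9l (−0.42), Prickle1 (−0.094), Dvl3 (−0.52), Pip4k2b (−0.28) and Capns1 (−0.48). Relative to the smooth muscle markers, which raises every fold change by a difference that rests on WT2, it turned for Wnt5b (0.35), Dvl2 (0.30) and Dvl1 (0.30), and without cKO1 for Dvl2, which ranged from −0.23 to 0.089 with 1 library left out. All genes past the threshold numbered 30 with no filter on low values, 631 with array weights, 312 relative to the fibroblast markers and 33 relative to the smooth muscle markers, and 0 to 122 when 1 library was left out, with 24 without cKO1 and 122 without cKO2. The wider Wnt list had 3 (Fzd7, Kremen2 and Trabd2b) with array weights and 1 (Trabd2b) relative to the fibroblast markers. Nedd4l passed with array weights (−1.09, adjusted p = 0.0212), relative to the fibroblast markers (−1.65, 0.00489) and without cKO2 (−1.28, 0.0131), and ranged from −1.28 to −0.79 with 1 library left out. The cause of these moves in counts was not tested. Tested members with all cKO above all WT libraries were also counted without each library, an alternative chosen after seeing the data. They numbered 3 to 5, beside 14.6% to 18.5% of all genes tested. There were 5 without cKO2 (beside 18.5%) and 5 without WT1 (beside 16.7%). Without WT3, 1 member (Wnt5b) had all cKO below all WT libraries, for which no share of all genes was taken. Leaving out a library for the marker lists, Rspo1, Dkk2, Lgr5, Wnt2, Wls, Col1a1 and Grem1 was also chosen after seeing the data. The labels do not say whether same-numbered libraries belong together. Deviations of same-numbered libraries from their group means correlated at −0.029, −0.090 and −0.056, and those of the other pairs at −0.024 to 0.064. Such values over all tested genes cannot exclude a shared litter or batch. With the replicate number as a block in limma, 0 genes passed. There 3 members (Dkk3, Sfrp1 and Wnt5a) were higher at an unadjusted p under 0.05, beside 7.41% of all genes tested. Wnt4 then had an unadjusted p of 0.0522. The TMM scaling and the edgeR and DESeq2 tests on recovered reads, 3 intended settings, were not run, so the calls rest on limma.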
